A study of Mus musculus with 50 samples.

Results

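The genes described here were 6 core members of the aryl hydrocarbon receptor pathway, Ahr, Arnt, Ahrr, Tiparp, Cyp1a1 and Cyp1b1, in mouse sarcomas induced with 3-methylcholanthrene (MCA). They were chosen by name, as the rows of the count table whose Ensembl identifier maps to these symbols, and made up 6 of the 37469 gene identifiers in the table. All 6 had counts in at least some tumors, and 5 of them passed the filter on low counts that decided which genes were tested (19327 genes in all). Cyp1a1 did not pass it.

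The aryl hydrocarbon receptor is a ligand-activated transcription factor that waits in the cytoplasm in a complex with the chaperone HSP90 and co-chaperones such as p23. Planar aromatic hydrocarbons, of which MCA is a classical example, and several products of tryptophan metabolism bind it, after which it moves into the nucleus, pairs with ARNT and binds DNA elements with the core GCGTG. Cyp1a1 and Cyp1b1, which encode cytochrome P450 enzymes that oxidize such hydrocarbons, are its best known targets, and its targets Ahrr, a repressor that competes for ARNT, and Tiparp, a mono-ADP-ribosyltransferase that acts on the receptor, limit the response.

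Bulk RNA sequencing covered 48 whole p53/MCA sarcomas of 129/SvJae mice, 32 primary and 16 transplant tumors, harvested 3 days after treatment. Primary tumors arose in Trp53 fl/fl mice 6 to 10 weeks of age at induction, after Adeno-Cre, a virus that carries Cre recombinase, and then 300 µg of MCA were injected into the gastrocnemius muscle. Transplant tumors grew from 50000 cells of a cell line made from 1 untreated primary p53/MCA sarcoma, injected into the same muscle of syngeneic mice, and the methods describe no MCA injection of the recipient mice. Tumors of each model received 0 or 20 Gy to the hind limb and 200 µg of an antibody, either anti-PD-1, which blocks a T cell checkpoint receptor, or an isotype control. This gave 8 groups: 0 Gy with isotype (called untreated), 0 Gy with anti-PD-1, 20 Gy with isotype and 20 Gy with anti-PD-1, with 8 primary and 4 transplant libraries for each treatment. All groups share the deletion of Trp53 and an origin in MCA exposure, so no group without MCA was compared. All transplants descend from a single line, so a difference between transplants and primaries cannot be told apart from a difference between that line and the other tumors.

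Tumor libraries held 31810461 to 54008259 counts. Trp53, the gene deleted in the model, stood at 20.2 to 60.7 CPM, the counts scaled to a common library total with TMM factors, over the 48 tumors. These counts are sums over the whole gene in tumors that also hold undeleted host cells, so they do not check the deletion. EdgeR quasi-likelihood tests, two-sided, were used throughout. A gene was said to pass when its p-value adjusted over all 19327 genes was under 0.05. Differences are given as log2 fold changes with a standard error (SE). The SE was taken as the size of the log2 fold change over the square root of the F statistic of the test. In bulk samples, fewer cells of a type and less RNA per cell cannot be told apart. The summed level of 9 skeletal muscle markers ran from 14.0 to 87027 CPM over the tumors and was highest in replicate 4 of the primaries given 20 Gy and anti-PD-1 and in replicate 4 of those given 20 Gy and isotype.

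Of the 50 libraries, 2 were single libraries of line 402230, one labelled as a primary tumor and one as a cell line, and their marker genes went against both labels. In the library labelled as the tumor, all 6 T cell markers were at 0 counts, and the markers summed to 15.5 CPM for macrophages, 1.36 for endothelium, 0.0909 for neutrophils and 2.84 for skeletal muscle. In the library labelled as the cell line the same sums were 11.6 CPM for T cells, 1179 for macrophages, 380.2 for endothelium, 77.5 for neutrophils and 222.3 for skeletal muscle, and 5 hepatocyte markers summed to 559.5 CPM. Both libraries are therefore named below only by their labels, and neither entered a test, except in 1 alternative that is named where it is used.

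All 6 are protein-coding genes, placed here on GRCm38 by GENCODE. Ahr (ENSMUSG00000019256.17) lies at chr12:35497974-35535038 on the - strand, Arnt (ENSMUSG00000015522.18) at chr3:95434388-95497240 on the + strand and Ahrr (ENSMUSG00000021575.16) at chr13:74211118-74292331 on the - strand. Tiparp (ENSMUSG00000034640.9) lies at chr3:65528410-65555518 on the + strand, Cyp1a1 (ENSMUSG00000032315.6) at chr9:57687928-57703824 on the + strand and Cyp1b1 (ENSMUSG00000024087.3) at chr17:79701537-79715061 on the - strand.

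Promoters of the target genes are shown first because the receptor acts on its targets through elements with the core GCGTG. The bases before the start of each gene were taken from RefSeq on GRCm38.p6, the assembly also called mm10, and are written 5′ to 3′ on the strand of the gene, with the core GCGTG or its reverse complement CACGC in capitals. Of the 6 genes, 5 had an entry. Cyp1a1 (chr9:57697363-57697612, + strand) held 1 core, 54 bases before the RefSeq start, which lies inside the longer span that GENCODE gives the gene. Cyp1b1 (chr17:79715062-79715311, - strand) held 1, at 76 bases. Tiparp (chr3:65528197-65528409, + strand; 37 bases nearest the start lie in an annotated exon and are left out) held 1, at 170 bases. Ahrr (chr13:74292332-74292581, - strand) held 3, the nearest at 27 and the next at 82 bases.
Cyp1a1: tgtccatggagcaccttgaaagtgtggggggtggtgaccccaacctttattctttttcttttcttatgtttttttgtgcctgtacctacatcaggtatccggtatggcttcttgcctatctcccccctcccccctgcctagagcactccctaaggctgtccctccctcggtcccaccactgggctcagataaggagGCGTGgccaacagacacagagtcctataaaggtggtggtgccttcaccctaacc
Cyp1b1: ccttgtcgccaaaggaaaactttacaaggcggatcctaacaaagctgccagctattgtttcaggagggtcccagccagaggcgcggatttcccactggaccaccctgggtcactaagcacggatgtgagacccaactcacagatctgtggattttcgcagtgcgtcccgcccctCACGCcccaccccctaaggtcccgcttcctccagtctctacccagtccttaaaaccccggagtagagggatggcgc
Tiparp: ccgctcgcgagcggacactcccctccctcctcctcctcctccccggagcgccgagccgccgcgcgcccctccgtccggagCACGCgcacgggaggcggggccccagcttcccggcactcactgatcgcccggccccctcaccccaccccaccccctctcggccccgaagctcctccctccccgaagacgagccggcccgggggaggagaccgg
Ahrr: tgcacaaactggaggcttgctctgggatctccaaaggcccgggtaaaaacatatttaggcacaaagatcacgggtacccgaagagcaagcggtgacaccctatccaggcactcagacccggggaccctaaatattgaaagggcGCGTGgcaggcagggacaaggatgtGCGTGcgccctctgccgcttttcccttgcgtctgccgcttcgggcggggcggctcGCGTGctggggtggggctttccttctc
The Arnt promoter held 1 core, at 29 bases. Over all 32851 promoters of 250 bases, 28.2% held at least 1 core on either strand and 2.8% held at least 3. A match to these letters describes the sequence only and is not evidence of binding.

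Per kilobase of exon, the genes of the receptor itself and Tiparp were the most abundant and Cyp1a1 was close to the limit of detection. The mean level over the 48 tumors was 14.6 CPM per kb for Tiparp, 12.8 for Arnt, 6.70 for Ahr, 4.57 for Cyp1b1, 0.193 for Ahrr and 0.026 for Cyp1a1. Tiparp and Arnt did not separate: Tiparp was the higher of the pair per kb in 28 of 48 libraries, in 14 of 16 transplants and in 14 of 32 primaries. Arnt exceeded Ahr in 44 of 48 libraries, Ahr exceeded Cyp1b1 in 38, Cyp1b1 exceeded Ahrr in 46 and Ahrr exceeded Cyp1a1 in 48. The genes also differed in how much they varied among tumors. The ratio of the highest to the lowest CPM was 525 for Cyp1b1, 10.8 for Ahr, 9.25 for Ahrr, 3.13 for Tiparp and 2.22 for Arnt.

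**Figure D1:**
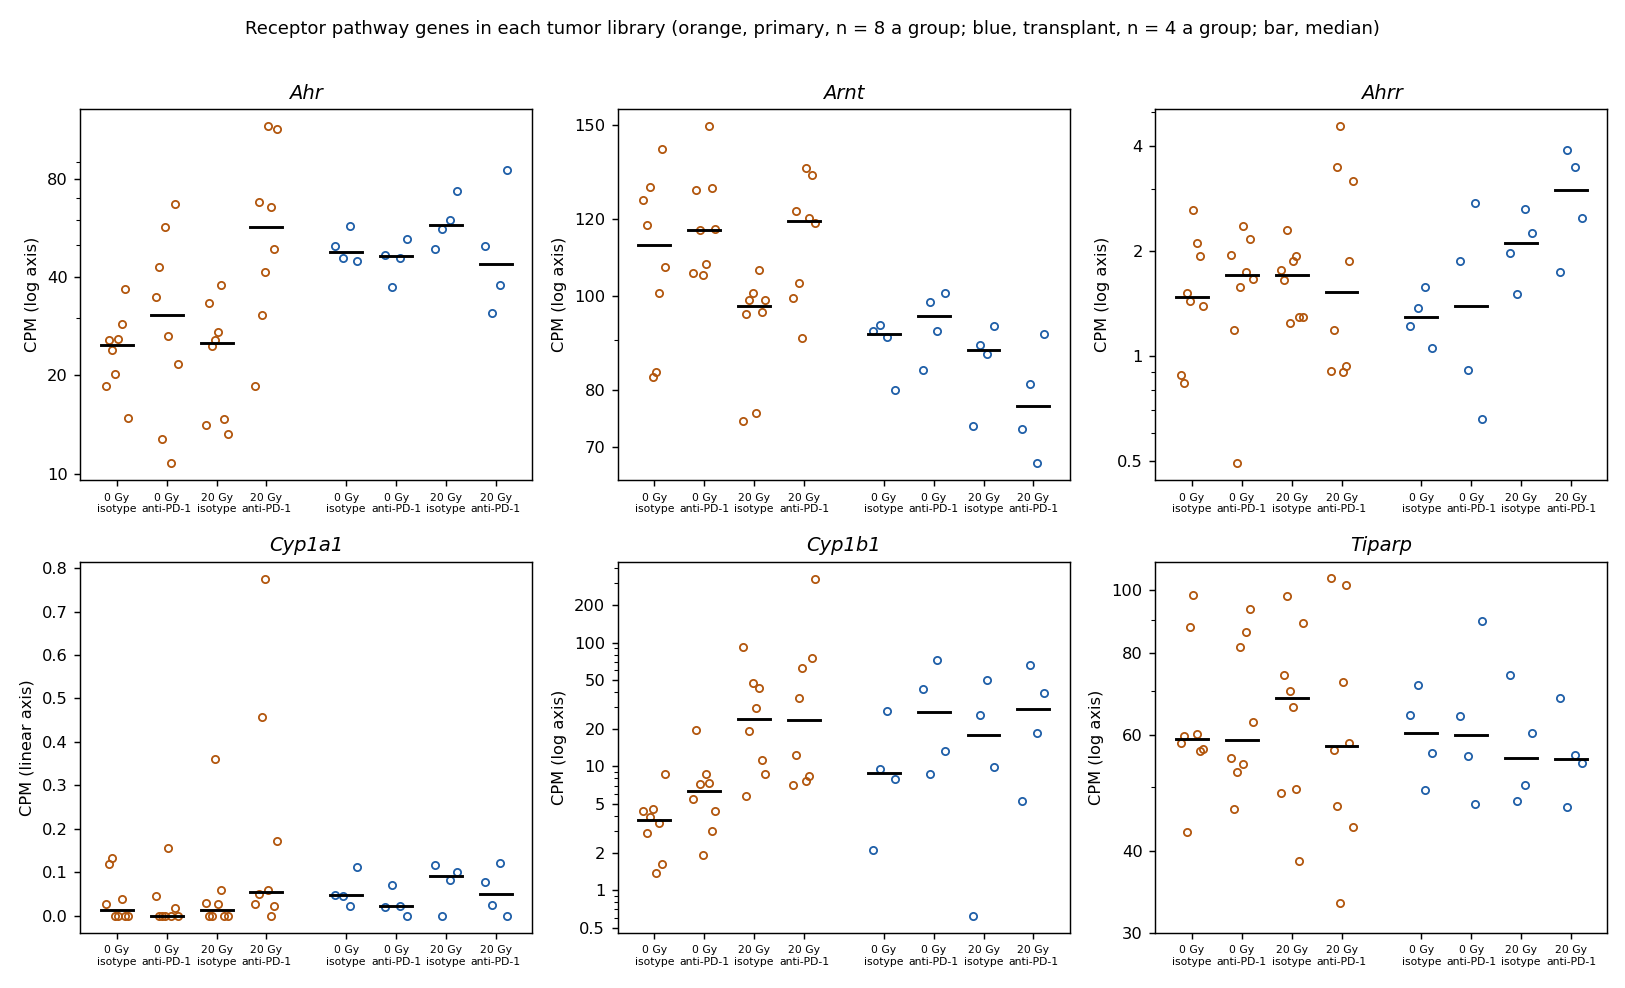
Level of each of the 6 genes in CPM (log axis, linear for Cyp1a1) in every tumor library, by treatment, with primaries in orange (8 a group), transplants in blue (4 a group) and bars at the group median. Cyp1b1 is spread over the widest range, 525-fold, Tiparp and Arnt over the narrowest, and Cyp1a1 stays at or below 0.776 CPM.

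Ahr, the receptor, was higher in transplants than in primaries in tumors that had not received anti-PD-1. Untreated transplants stood at 49.7, 45.7, 57.5 and 44.9 CPM, and the 8 untreated primaries ran from 14.8 to 36.8 CPM with a median of 24.7. After 20 Gy with isotype, transplants stood at 48.8, 56.1, 59.8 and 73.3 CPM, and primaries ran from 13.2 to 37.8 CPM with a median of 25.2. In both comparisons all 4 transplants lay above all 8 primaries, which held for 2.87% of genes tested in the untreated tumors and for 3.24% after 20 Gy. The difference was a log2 fold change of 1.32 after 20 Gy (SE 0.367, adjusted p 0.0262) and 1.02 in untreated tumors (SE 0.369), where the adjusted p of 0.0657 missed the threshold. The call after 20 Gy was lost when any of 6 single libraries was left out (transplant replicates 2, 3 and 4 and primary replicates 1, 7 and 8), with an adjusted p of up to 0.118.

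With anti-PD-1 the same gene did not separate the models. Transplants given anti-PD-1 alone stood at 46.9, 37.3, 45.9 and 52.2 CPM, inside the range of 10.8 to 67.0 CPM of the 8 primaries, whose median was 30.6. After the combination, transplants stood at 49.7, 31.1, 37.8 and 85.4 CPM and primaries ran from 18.6 to 115.9 CPM with a median of 57.1. The log2 fold changes, transplant over primary, were 0.41 (SE 0.374, adjusted p 0.574) under anti-PD-1 alone and -0.30 (SE 0.384, adjusted p 0.666) after the combination. Whether the difference between models itself depended on the antibody was not tested. Averaged over the 4 treatments, Ahr was higher in transplants by a log2 fold change of 0.61 (SE 0.186, adjusted p 0.00853), a call that held in 56 of 56 alternatives.

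Within primaries, Ahr was higher in tumors given anti-PD-1 than in those given isotype by a log2 fold change of 0.94 (SE 0.221) averaged over the doses, which did not pass after adjustment (adjusted p 0.206, unadjusted p 1.07e-04 from the edgeR fit). At 20 Gy, 6 of 8 primaries given anti-PD-1 lay above all 8 given isotype. At 0 Gy, 3 of 8 lay above all given isotype and 2 lay below. DESeq2 called this difference (0.96, adjusted p 0.0317), as did edgeR without replicate 1 of the primaries given 20 Gy and anti-PD-1 (1.03, adjusted p 0.0474). Only 3 genes, 0.0155% of those tested, passed in this comparison. In transplants the corresponding value was -0.17 (SE 0.310, adjusted p 0.9999). Radiation gave a log2 fold change of 0.42 in primaries (SE 0.220, adjusted p 0.139) and 0.21 in transplants (SE 0.310, adjusted p 0.788).

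Arnt, the partner with which the receptor binds DNA, varied little and was lower in transplants when averaged over the 4 treatments. After the combination, transplants stood at 73.1, 81.2, 67.3 and 91.5 CPM against 90.5 to 135.4 CPM (median 119.5) in primaries. Only the highest of the 4 transplants reached into the range of the primaries. For Arnt this gave a log2 fold change of -0.56 (SE 0.130, adjusted p 0.00946). Without replicate 3 of those transplants it was -0.50 and no longer passed (adjusted p 0.0989), and a fit of these groups alone did not call it (adjusted p 0.123). Under anti-PD-1 alone, transplants stood at 83.9, 98.7, 92.1 and 100.6 CPM, all below the primaries, which ran from 105.1 to 149.4 CPM. Such a separation was seen for 3.30% of genes tested, and the log2 fold change of -0.35 (SE 0.129) missed the threshold (adjusted p 0.0820). In untreated tumors the log2 fold change was -0.32 (SE 0.128, adjusted p 0.102) and after 20 Gy alone -0.13 (SE 0.127, adjusted p 0.641). Neither passed, and transplants and primaries overlapped in both. Averaged over the 4 treatments, Arnt fell by 0.34 on the log2 scale from primaries to transplants (SE 0.064, adjusted p 5.31e-05), which passed in 56 of 56 alternatives. Radiation gave a log2 fold change of -0.25 in primaries given isotype (SE 0.104, adjusted p 0.0876).

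**Figure D2:**
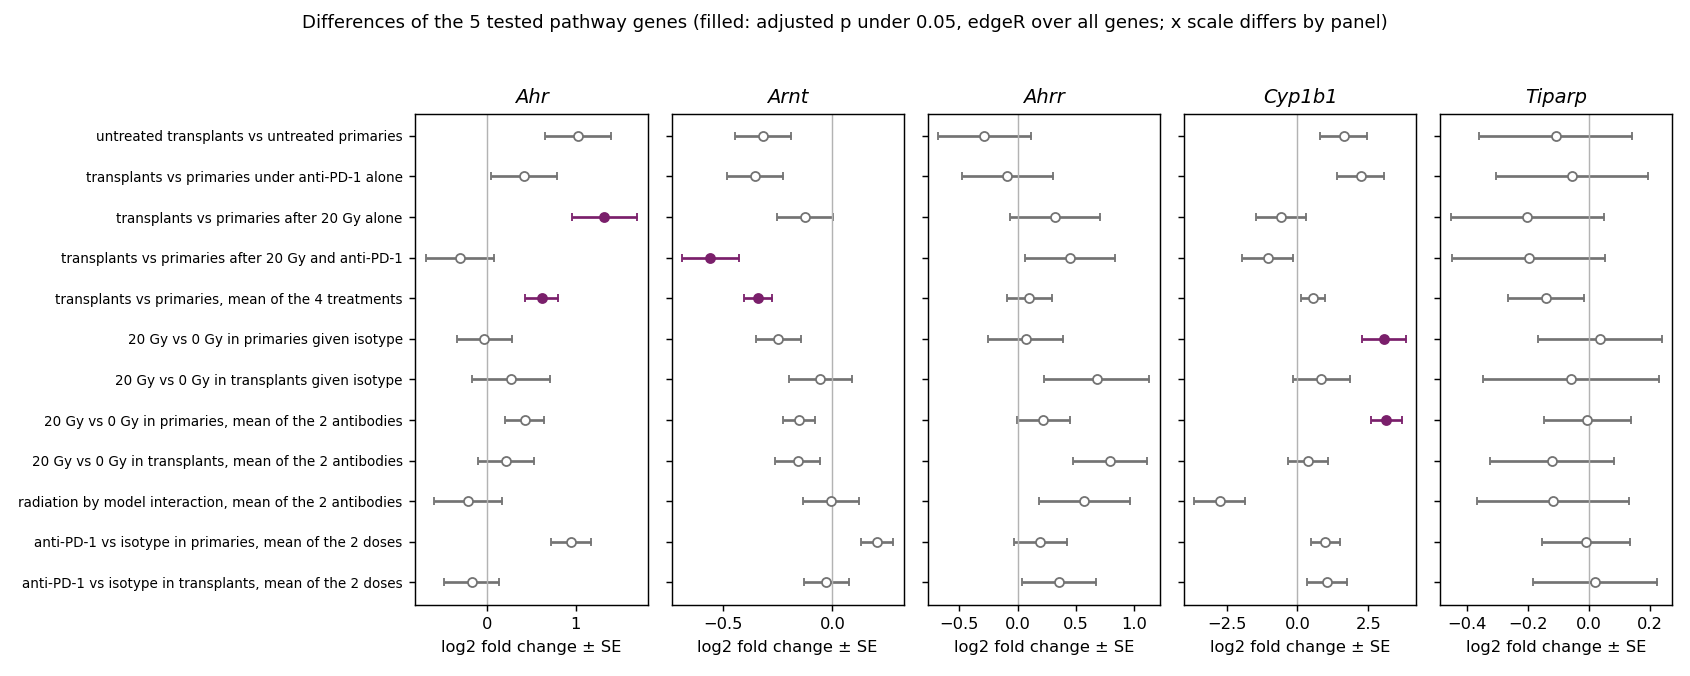
Log2 fold change of the 5 tested genes in each comparison, with bars of 1 SE on either side. Symbols are filled for an adjusted p under 0.05 in edgeR, and the scale differs between genes. Cyp1b1 is furthest from 0 after radiation in primaries, at 3.05 with isotype and 3.13 averaged over the antibodies, and Tiparp stays within 0.20 of 0 throughout.

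Ahrr, the repressor, was a low-abundance transcript with 19 to 161 counts a tumor. Unirradiated transplants stood at 1.22, 1.37, 1.58 and 1.05 CPM with isotype and at 1.86, 0.912, 2.74 and 0.659 CPM with anti-PD-1. Irradiated transplants stood at 1.97, 1.51, 2.63 and 2.25 CPM with isotype and at 1.74, 3.89, 3.48 and 2.48 CPM with anti-PD-1. With isotype, 3 of 4 irradiated transplants lay above all unirradiated ones, and with anti-PD-1 2 of 4 did. The log2 fold change for radiation in transplants, averaged over the antibodies, was 0.79 (SE 0.320) and did not pass (adjusted p 0.140). It passed without replicate 3 of the transplants given 0 Gy and anti-PD-1 (1.03, adjusted p 0.0446). Primaries ran from 0.492 to 4.55 CPM, with a log2 fold change for radiation of 0.22 (SE 0.226, adjusted p 0.491). With group means removed, Ahrr had a Spearman rho of 0.89 with the summed markers of neutrophils, 0.88 with those of T cells and 0.71 with those of macrophages among the 16 transplants. Among the 32 primaries the same values were 0.34, 0.47 and 0.55. The neutrophil markers of transplants summed to 39.8 to 616 CPM without radiation and to 120.3 to 332.2 CPM with it. Their T cell markers summed to 40.4 to 194.2 CPM without radiation and to 44.7 to 180.6 CPM with it. Macrophage markers summed to 1689 to 2488 CPM without and 2886 to 4652 CPM with radiation in transplants given isotype. In those given anti-PD-1 these sums were 1349 to 3224 and 2884 to 5660 CPM. The part of these 3 kinds of cells in the values of Ahrr was not tested.

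Tiparp, the ADP-ribosyltransferase, was the steadiest target. It ran from 46.7 to 89.6 CPM in transplants and from 33.2 to 104.1 CPM in primaries. Group medians lay between 55.2 and 68.2 CPM in all 8 groups. In none of the 12 comparisons did it pass in edgeR, DESeq2 or limma voom or under any other alternative run, and the edgeR log2 fold changes lay between -0.20 and 0.04. In untreated tumors the 95% interval of the difference between models, from the SE and a normal distribution, ran from -0.60 to 0.38 on the log2 scale. The exons of Tiparp overlap the opposite-strand gene 4931440P22Rik, which had at least 40 counts in each tumor, and how the counting treated strand is not known.

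Cyp1a1, the classical target, was hardly detected in any group. Tumors held 2.75 counts of it on average, 17 of 48 had 0 counts and 36 had 3 or fewer. A library with 0 counts allows a level of up to 0.0536 to 0.101 CPM, by its depth, for counting error only. Transplants had 2, 2, 1 and 5 counts untreated, 1, 4, 1 and 0 after anti-PD-1 alone, 6, 0, 3 and 4 after 20 Gy alone, and 3, 1, 5 and 0 after the combination. Primaries had 0 to 6 counts in both unirradiated groups, 0 to 13 after 20 Gy with isotype and 0 to 23 after the combination. The highest level, 0.776 CPM, was in replicate 4 of the primaries given 20 Gy and anti-PD-1, the library with the highest muscle sum. With group means removed, Cyp1a1 had a Spearman rho of 0.68 with the muscle markers among primaries and -0.19 among transplants. At counts this sparse no difference between groups passed in any alternative that kept the gene. For radiation in primaries, averaged over antibodies, 2 such alternatives gave log2 fold changes of 1.22 and 1.57 (adjusted p from 0.115 to 0.174).

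Cyp1b1, the other cytochrome P450 target, rose after radiation in primary tumors. The 8 untreated primaries ran from 1.38 to 8.73 CPM with a median of 3.71, and the 8 given 20 Gy with isotype ran from 5.74 to 92.8 CPM with a median of 24.3. With anti-PD-1, unirradiated primaries ran from 1.94 to 19.8 CPM with a median of 6.33 and irradiated ones from 7.11 to 327.1 CPM with a median of 23.9. The groups overlapped: 6 of 8 irradiated primaries lay above all unirradiated ones with isotype, and 4 of 8 with anti-PD-1. The log2 fold change was 3.05 with isotype (SE 0.766, adjusted p 0.00408), or 8.30-fold, and 3.13 averaged over the antibodies (SE 0.543, adjusted p 2.17e-05), or 8.78-fold. These calls held in 25 of 25 and 41 of 41 alternatives. Cyp1b1 was the only one of the 5 tested genes to pass in either comparison, in which 18.3% and 31.0% of all genes tested passed.

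The Cyp1b1 difference was smaller without 1 tumor and with a muscle covariate, and hardly moved without the tumors richest in muscle. Replicate 8 of the primaries given 20 Gy and anti-PD-1 held the highest level, 327.1 CPM. Without it the mean over antibodies was 2.55. With the mean of the muscle markers as a covariate the log2 fold change was 2.04 with isotype (adjusted p 0.0242) and 2.39 over both antibodies (adjusted p 8.55e-05), and both passed. Without the primary richest in muscle in each irradiated group, an alternative chosen after seeing the data, the values were 2.98 with isotype and 3.12 over both antibodies. With group means removed, Cyp1b1 had a Spearman rho with the muscle markers of 0.51 among primaries and 0.59 among transplants. The markers of other cells moved with it as well: rho was 0.59 for adipocytes and 0.38 for endothelium among primaries, and 0.71 for endothelium, 0.68 for T cells, 0.63 for neutrophils and -0.62 for keratinocytes among transplants. The part of these other cells in its level was not tested. The muscle sum itself ran from 284.7 to 48805 CPM in primaries given 20 Gy and isotype and from 65.9 to 6337 CPM in untreated primaries.

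In transplants Cyp1b1 ranged widely both without and with radiation. Unirradiated transplants stood at 2.10, 9.55, 28.2 and 7.98 CPM with isotype and at 42.0, 8.67, 72.1 and 13.3 CPM with anti-PD-1. Irradiated transplants stood at 0.623, 25.8, 49.6 and 9.85 CPM with isotype and at 5.30, 66.1, 18.5 and 39.4 CPM with anti-PD-1. Both pairs of groups overlapped: with isotype 1 irradiated transplant lay above and 1 below all unirradiated ones, and with anti-PD-1 1 lay below all. The log2 fold change for radiation was 0.84 with isotype (SE 1.006, adjusted p 0.842) and 0.38 averaged over the antibodies (SE 0.707, adjusted p 0.845). The difference in the effect of radiation between transplants and primaries was -2.75 on the log2 scale (SE 0.887). It did not pass after adjustment (adjusted p 0.258, unadjusted p 0.0034 from the edgeR fit), in a comparison in which 0.0259% of genes passed.

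Against primaries of the same treatment, Cyp1b1 in transplants had log2 fold changes of 1.63 untreated (SE 0.839, adjusted p 0.218) and 2.24 under anti-PD-1 alone (SE 0.833, adjusted p 0.0916). After 20 Gy alone the value was -0.59 (SE 0.886, adjusted p 0.777) and after the combination -1.05 (SE 0.905, adjusted p 0.499). These 4 values did not pass, and the fit of the compared groups alone called the one under anti-PD-1 alone (adjusted p 0.0376). For anti-PD-1 against isotype the values were 0.98 in primaries (SE 0.506, adjusted p 0.726) and 1.05 in transplants (SE 0.713, adjusted p 0.9999).

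The calls between the models were also counted over the 5 tested genes, beside the share of all genes that passed. In untreated tumors edgeR called 0 of 5, where 10.3% of all genes passed. At an unadjusted p under 0.05 the number was 2, and DESeq2 and limma voom called 0. Under anti-PD-1 alone edgeR called 0 of 5 (7.35% of all genes), 2 at an unadjusted p under 0.05, DESeq2 1 and voom 0. After 20 Gy alone it called Ahr, 1 of 5, where 4.87% of all genes passed, and after the combination Arnt, 1 of 5, where 6.76% did. Averaged over treatments it called Ahr and Arnt, 2 of 5, where 34.8% of all genes passed, a share close to that of the 5. There the 5 genes had a median log2 fold change of 0.10 and all genes one of -0.0025.

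Counted the same way, edgeR called none of the 5 for radiation in transplants or for anti-PD-1 in either model. For radiation in transplants edgeR, DESeq2 and voom called 0 of 5 with isotype (1.92% of all genes in edgeR, none of the 5 at an unadjusted p under 0.05) and 0 of 5 averaged over antibodies (7.23% of all genes, 1 at an unadjusted p under 0.05). For anti-PD-1 in transplants all of these numbers were 0 of 5, and over all 19327 genes edgeR and voom called 0, DESeq2 called 1, and 383 had an unadjusted p under 0.05 in edgeR. For anti-PD-1 in primaries edgeR and voom called 0, 2 had an unadjusted p under 0.05, and DESeq2 called Ahr.

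Cyp1b1 and Tiparp, both targets, moved in opposite directions among tumors of the same treatment. With group means removed, log2 CPM of the genes had a Pearson r of -0.584 (permutation p 0.00229, adjusted p 0.0661) and a Spearman rho of -0.574 (permutation p 0.00218, adjusted p 0.0351) over the 32 primaries. Over the 16 transplants r was -0.712 (permutation p 0.00441, adjusted p 0.0661) and rho was -0.779 (permutation p 0.00234, adjusted p 0.0351). P-values came from 100000 permutations within groups and were adjusted over the 30 relations among the 6 genes. Without the 2 tumors farthest from the median of Cyp1b1, r was -0.553 in primaries and -0.658 in transplants, and in both models no pair then passed for rho after adjustment. Both genes also followed markers of other cells in opposite directions. In both models rho was positive for Cyp1b1 and negative for Tiparp with the markers of muscle, fibroblasts and matrix, endothelium, adipocytes, Schwann cells, T cells and macrophages, and the reverse with those of keratinocytes. For Tiparp rho was -0.66 in primaries and -0.51 in transplants with muscle, -0.51 and -0.51 with fibroblasts and matrix, -0.45 and -0.43 with endothelium and -0.46 and -0.36 with adipocytes. The part of these cells in the relation was not tested. Among primaries, Cyp1a1 and Tiparp had a rho of -0.541 (permutation p 0.00357, adjusted p 0.0357), which rests on the sparse counts of Cyp1a1.

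**Figure D3:**
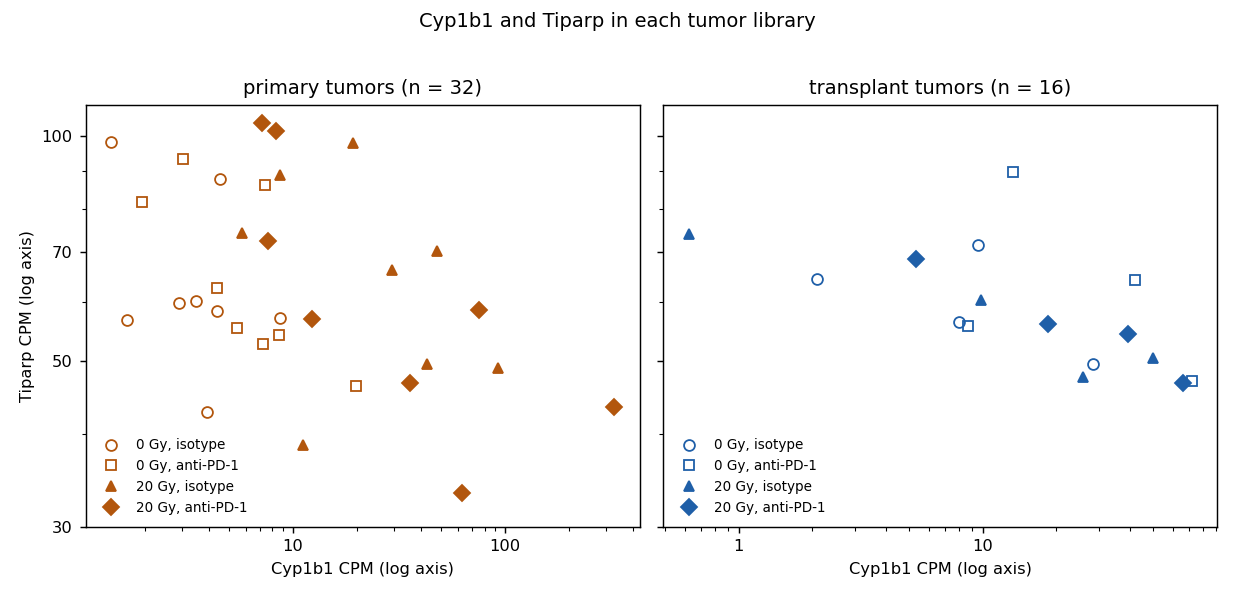
Cyp1b1 against Tiparp in each tumor, in CPM on log axes with symbols by treatment, for the 32 primaries and the 16 transplants. Group means are not subtracted in the plot. With group means removed, tumors with more Cyp1b1 tended to have less Tiparp in both models, with Spearman rho of -0.574 and -0.779.

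The genes whose levels most resembled each member were found by Spearman rho over the 48 tumors, on log2 CPM with group means removed, among 11740 genes. For Ahr they were Plcb1 (0.786), Ptgs1 (0.775) and Abcb1a (0.750). For Arnt they were Zzz3 (0.804), Setdb1 (0.790) and Pik3ca (0.786). For Ahrr they were N4bp2l1 (0.815), Id2 (0.814) and Gdpd3 (0.778). For Tiparp they were Gorab (0.803), Ifrd1 (0.763) and Car13 (0.760), and for Cyp1b1 Palmd (0.769), Acvr2a (0.752) and Sort1 (0.750). For Cyp1a1, which was sparse, the highest was Asb2 (0.575). These points share libraries and their composition, and the values are descriptions.

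Other genes of the pathway were read from 4 lists: 5 of the cytoplasmic receptor complex and its ubiquitin ligase, 3 alternative partners, 9 further targets and 8 enzymes and carriers of tryptophan-derived ligands. Gsta1 and Il22, both of the target list, did not pass the filter. In the receptor complex list, averaged over treatments, 1 of 5 passed between the models, where 34.8% of all genes did: Ptges3, which encodes p23, was lower in transplants (log2 fold change -0.26, SE 0.089, adjusted p 0.0179). Within single treatments no gene of this list passed between the models in edgeR, DESeq2 or voom, and 1 had an unadjusted p under 0.05, after 20 Gy alone. Averaged over treatments, the median log2 fold change of the 5 genes was -0.015. Radiation lowered Cul4b, a scaffold of the ubiquitin ligase that the receptor can recruit, in primaries given isotype (-0.46, SE 0.113, adjusted p 0.00356), and the kinase gene Src (-0.69, SE 0.232, adjusted p 0.0305). These were 2 of 5, where 18.3% of all genes passed. Averaged over antibodies, radiation in primaries lowered 1 of 5 in edgeR and raised 0, where 31.0% of all genes passed. DESeq2 called 1 there and voom 2. Mean Src was 155.2 CPM without and 95.9 CPM with radiation in primaries given isotype. In those given anti-PD-1 the means were 126.9 and 121.9 CPM.

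Among the partner genes, Arnt2, a close relative of Arnt, was higher in transplants after 20 Gy alone (2.29, SE 0.460, adjusted p 0.00172) and averaged over treatments (1.41, SE 0.230, adjusted p 5.64e-06). Hif1a, the hypoxia factor that also pairs with ARNT, was higher under anti-PD-1 alone (0.79, SE 0.219, adjusted p 0.0188) and averaged over treatments (0.35, SE 0.111, adjusted p 0.0127). So 2 of 3 partner genes passed in the average, where 34.8% of all genes did, and both were higher. After the combination 0 of 3 passed, where 6.76% of all genes did. There Hif1a ran from 222.3 to 347.7 CPM in transplants and from 166.2 to 503.3 CPM in primaries. The exons of Arnt2 and of Hif1a each overlap a gene on the opposite strand. Hif1a also rose after radiation in primaries averaged over antibodies (0.42, SE 0.130, adjusted p 0.0115), 1 of 3 where 31.0% of all genes passed. Its mean was 195.4 CPM without and 213.6 CPM with radiation in primaries given isotype, and 182.4 and 299.7 CPM in those given anti-PD-1. With isotype 0 of 3 partner genes passed for radiation in edgeR, DESeq2 or voom, where 18.3% of all genes passed in edgeR.

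Among the 7 tested target genes outside the 6, the differences between models that passed were in Nqo1 and Ereg in each of 3 treatments, 2 of 7 where 10.3% of all genes passed untreated, 7.35% under anti-PD-1 alone and 4.87% after 20 Gy alone. Nqo1, a quinone reductase controlled by both this receptor and NRF2, ran from 34.6 to 193.1 CPM in transplants. In primaries it ran from 3.56 to 22.4 CPM, except for replicates 2 and 5 of those given 20 Gy and anti-PD-1, at 137.5 and 95.6 CPM. Transplants and primaries overlapped only in that treatment. All transplants lay above all primaries for 2.87% of genes tested untreated, 2.68% under anti-PD-1 alone and 3.24% after 20 Gy alone. The log2 fold change of Nqo1 was 4.07 untreated (SE 0.581, adjusted p 1.09e-05), 3.87 under anti-PD-1 alone and 3.90 after 20 Gy alone. Ereg, an EGF-family ligand, had log2 fold changes of 1.96 untreated (SE 0.388, adjusted p 7.53e-04), 2.24 under anti-PD-1 alone and 2.08 after 20 Gy alone. The exons of Ereg overlap a gene on the opposite strand. With the library labelled as the primary tumor of line 402230 added to the untreated primaries, Nqo1 was at 2.00 (adjusted p 0.0884) and Ereg at 1.35 (adjusted p 0.0515). The marker genes of that library went against its label. It held 278.4 CPM of Nqo1 and 198.4 CPM of Ereg, above all 8 untreated primaries.

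After the combination, edgeR called 0 of 7 target genes (6.76% of all genes), 5 had an unadjusted p under 0.05, DESeq2 called 1 and voom 2. Averaged over treatments, edgeR called 2 of 7, Nqo1 and Ereg, both higher in transplants, against 34.8% of all genes, so the share was not above that of all genes. The median log2 fold change of the 7 genes was 0.31 against -0.0025 for all genes. Radiation in primaries raised 3 of 7 averaged over antibodies, where 31.0% of all genes passed in either direction. These were Aldh3a1 (2.09, SE 0.590, adjusted p 0.00628), Ugt1a6a (0.85, SE 0.266, adjusted p 0.0136) and Ereg (0.63, SE 0.234, adjusted p 0.0371). DESeq2 called 2 of the 7 in this average and voom 1. For radiation in primaries given isotype, 0 of 7 passed in edgeR, DESeq2 or voom, where 18.3% of all genes passed in edgeR. None of the 7 had an unadjusted p under 0.05 in edgeR there. Aldh3a1, an aldehyde dehydrogenase, rested on replicate 8 of the primaries given 20 Gy and anti-PD-1 and was at 0.75 without it (adjusted p 0.202). Ugt1a6a shares exons with other Ugt1a genes, so its counts are uncertain.

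In the ligand list, the tryptophan-degrading enzymes Ido1 and Ido2 were higher in transplants averaged over treatments and rose after radiation in primaries averaged over antibodies. Untreated transplants had 0.605 to 7.38 CPM of Ido1 and untreated primaries 0.023 to 0.365 CPM, from 1 to 14 counts. The log2 fold change was 5.11 (SE 0.798, adjusted p 4.59e-05), then 5.31, 4.35 and 2.96 under anti-PD-1 alone, 20 Gy alone and the combination, all of which passed. Ido2 did not pass between the models in untreated tumors or after the combination. In untreated tumors it ran from 0.673 to 1.51 CPM in transplants and from 0.023 to 1.41 CPM in primaries. Slc7a5, a carrier of large neutral amino acids such as tryptophan and kynurenine, was lower in untreated transplants, at 38.5 to 72.7 CPM against 85.3 to 211.5 CPM (-1.38, SE 0.312, adjusted p 0.00305). Averaged over treatments, 4 of 8 passed, where 34.8% of all genes did, with Ido1, Ido2 and Kynu higher and Slc7a5 lower. The median of the list was 0.45 against -0.0025 for all genes.

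Radiation in primaries, averaged over antibodies, raised 4 of 8 ligand genes and lowered Slc7a5 (-0.59, SE 0.169, adjusted p 0.00671), where 31.0% of all genes passed. The raised genes were Ido1 (3.03, SE 0.490, adjusted p 7.37e-06), Ido2 (1.81, SE 0.364, adjusted p 1.89e-04), Kynu (1.23, SE 0.398, adjusted p 0.0163) and Il4i1 (1.13, SE 0.232, adjusted p 2.47e-04), whose exons overlap those of neighboring genes. In transplants only Ido2 passed in edgeR (1.70, SE 0.501, adjusted p 0.0259), 1 of 8 where 7.23% of all genes did. The radiation by model interaction passed for 0 of the 28 pathway genes tested in edgeR, DESeq2 or voom, and 6 had an unadjusted p under 0.05 in edgeR. Macrophage markers, whose cells can express several of these enzymes, summed to 1785 to 3484 CPM in untreated primaries and 2107 to 4201 CPM after 20 Gy with isotype, and their part was not tested. Tdo2 passed after the combination (4.93, SE 1.52, adjusted p 0.0405) through transplant replicate 3 alone, was at -0.29 without it, and that library also held 12467 counts of the hepatocyte gene Alb.

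**Figure D4:**
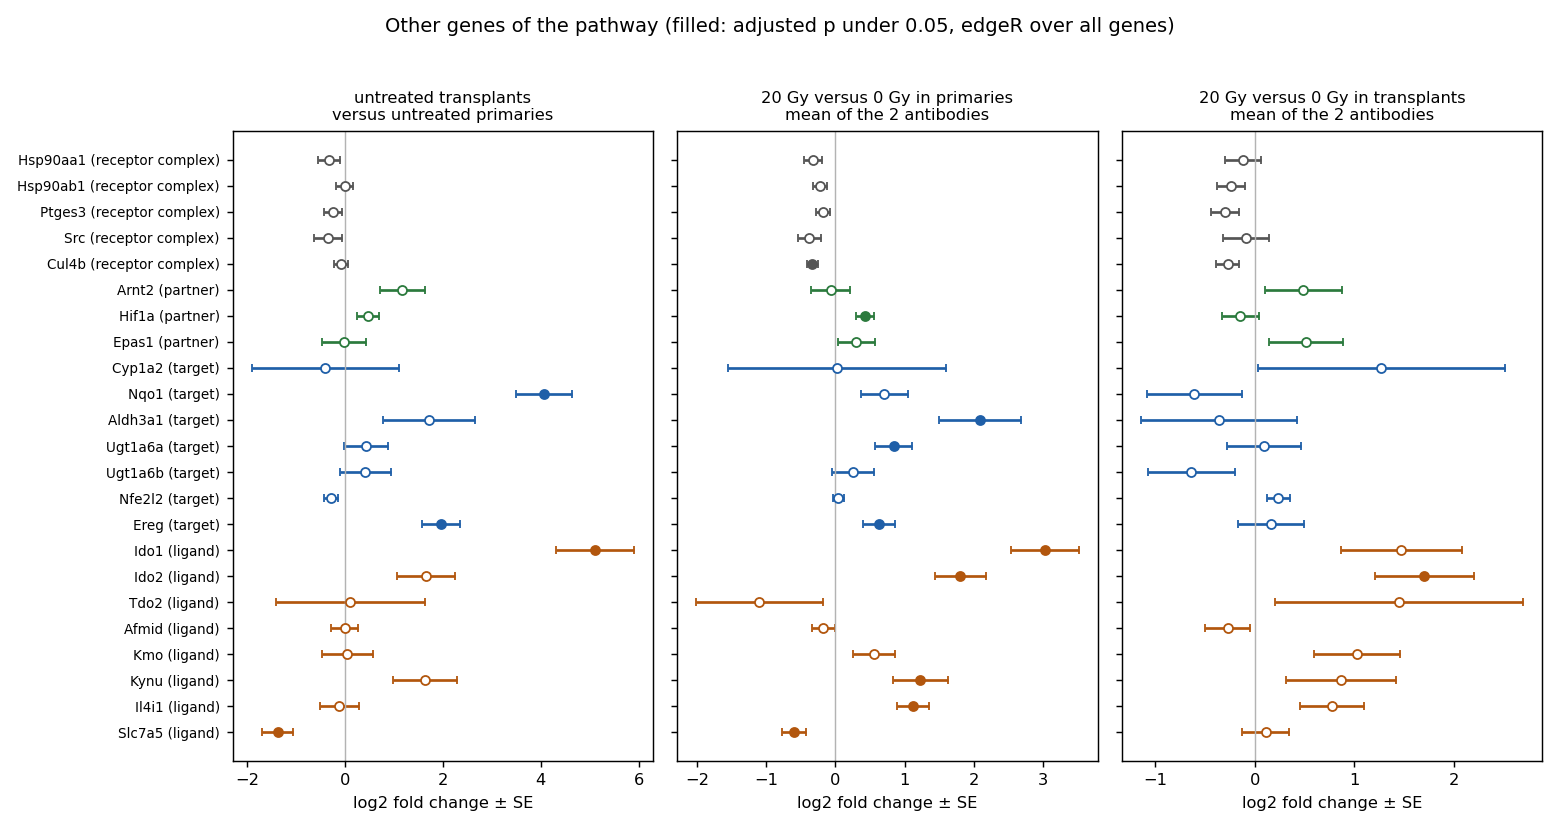
Log2 fold change of each gene in the 4 pathway lists for 3 comparisons, with bars of 1 standard error on either side and filled symbols for an adjusted p under 0.05 in edgeR. Ido1 and Nqo1 are furthest above 0 between the models, and Ido1 is furthest above 0 for radiation in primaries, at 3.03.

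The 2 libraries of line 402230 were read on values scaled over all 50 libraries, with 95% exact binomial intervals that cover counting error only. Ahr stood at 31.6 CPM (29.9 to 33.3) in the library labelled primary tumor and at 124.7 CPM (121.5 to 127.98) in the library labelled cell line, above all 48 tumors. Arnt stood at 80.6 and 122.5 CPM. Tiparp stood at 148.5 CPM in the library labelled primary tumor, above all 48 tumors, whose highest was 104.9 CPM, and at 80.4 CPM in the other.

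The targets Cyp1b1 and Cyp1a1 lay within the range of the 48 tumors in both libraries. Cyp1b1 stood at 5.68 and 4.12 CPM, and Cyp1a1 at 0.32 and 0.086 CPM (14 and 4 counts). Ahrr stood at 0.43 CPM in the library labelled primary tumor, below all 48 tumors, and at 1.79 CPM in the other. Nqo1 was above all 48 tumors in both, at 278.4 and 228.0 CPM, against at most 188.5 CPM in a tumor. Ido1 was at 0.52 and 0.86 CPM in these libraries. With 1 library of each kind there is no replicate check of any of these differences.

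**Figure D5:**
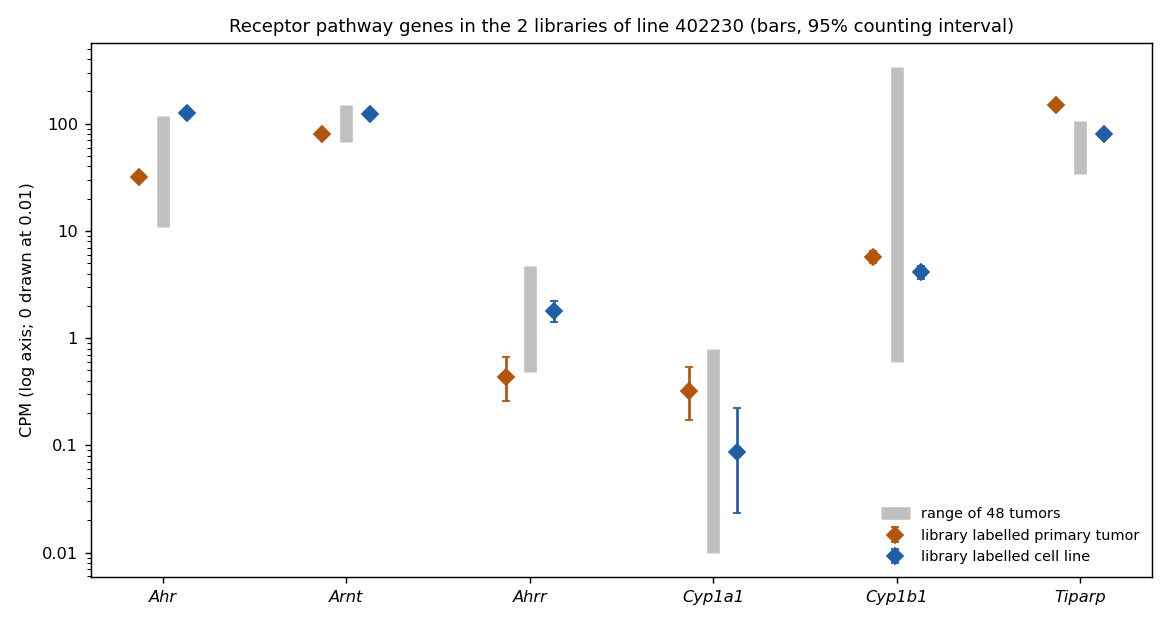
Level of the 6 genes in CPM (log axis) in the 2 libraries of line 402230, beside the range of the 48 tumors (gray bars, with 0 drawn at 0.01) scaled in the same way, with 95% counting intervals. The library labelled cell line lies above all tumors for Ahr, at 124.7 CPM, and the library labelled primary tumor lies above all tumors for Tiparp, at 148.5 CPM, and below all for Ahrr, at 0.43 CPM.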

How the data were processed

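The study's methods describe oligo-dT capture of mRNA and stranded KAPA libraries. The authors trimmed reads (Trimmomatic 0.36), aligned them to mm10 (STAR) and counted them over GENCODE M17 genes by the HTSeq method. The deposited table holds raw counts, whole numbers with 1 column a library, not normalized or pooled. Whether the counting used strand is not given in the sources used here, so genes that overlap on opposite strands are uncertain. Symbols and GRCm38 coordinates came from GENCODE M21, which matched 37408 of 37469 identifiers.

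The 48 tumors were fitted with edgeR 4.0.16 (R 4.3.3), in 1 robust quasi-likelihood model with TMM factors, a mean per group and no covariate. The 8 groups thus shared one estimate of the spread in all 12 comparisons. The filter filterByExpr, applied by group, kept 19327 genes, over which the two-sided p-values were adjusted (Benjamini-Hochberg). The test was tried on simulated counts first. In the labels each tumor library carries a number of its own, and the study describes each value as 1 mouse, so replicates were taken as separate mice. No pair of libraries of one group agreed within sampling noise (lowest chi-square per degree of freedom 93.6 over 136 pairs). Binomial intervals, and the limits set by counts of 0 (taken as 3 counts), cover counting error only.

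Alternatives were fits with no TMM factors, RLE factors, DESeq2 1.42.0, voom of limma 3.58.1, no filter, the muscle markers as a covariate, the compared groups alone, the library of line 402230 labelled primary tumor added to the untreated primaries, and each library of a comparison left out. The 6 genes, the lists and the tests were chosen with earlier results of these data known. The genes named were the 6 members, Trp53, genes of 4 pathway lists where they passed in a comparison described, and the 3 genes most like each member by Spearman rho, among genes with an average log2 CPM of at least 2. Of the genes first put on these lists, 2 are not reported here and are left out of the lists' counts and medians. Correlations used log2 CPM with a prior count of 2.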

Additional observations from a re-analysis of the deposited data

Results flagged for a closer look

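Ahrr in replicate 3 of the primaries given 0 Gy and anti-PD-1 stood apart from the rest of its group, at 0.492 CPM against 1.19 to 2.36 CPM in the other 7 libraries. On the log2 scale the gap to the nearest of the others was 0.563 of the range of the group, past the limit of Dixon's test for 8 samples. This was the only such library among 40 combinations of a tested gene and a group, where chance alone flags about 1 in 20 groups, or 2 of 40.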

How the results depend on the processing

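No paired analysis was possible because the labels carry no replicate numbers, and the numbers used here follow accession order and pair nothing. The calls of Cyp1b1 after radiation in primaries, and of Ahr and Arnt averaged over treatments, held in all alternatives run for them. Alternatives chosen after seeing the data were those that left out each primary in turn and the primaries richest in muscle. Of the 5 tested genes, fits of the compared groups alone called 1 in untreated tumors (Ahr, adjusted p 0.00901), 1 under anti-PD-1 alone (Cyp1b1) and 0 after the combination, and DESeq2 called 1 under anti-PD-1 alone (Arnt, adjusted p 0.0397) and 1 for anti-PD-1 in primaries (Ahr). With single libraries left out, the number called ran from 0 to 1 between the models in untreated tumors, after 20 Gy alone and after the combination, from 1 to 2 for radiation in primaries given isotype, from 0 to 1 for radiation in transplants averaged over antibodies and from 0 to 1 for anti-PD-1 in primaries. Without replicate 4 of the untreated primaries Arnt passed in untreated tumors (adjusted p 0.0462) and for radiation in primaries given isotype (adjusted p 0.0334), and without replicate 7 Ahr passed in untreated tumors (adjusted p 0.0483). The cause was not tested in any of these.

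Some values that did not pass changed sign. Cyp1b1 for radiation in transplants averaged over antibodies was -0.035 with limma voom and ran from -0.012 to 0.85 with single libraries left out. Cyp1b1 between models after the combination ran from -1.66 to 0.11, and Tdo2, which passed there, from -0.29 to 6.63. Of the 60 log2 fold changes of the 5 genes, 29 were under 0.25 in size and not called, and 15 of these changed sign under at least 1 alternative. Without the 2 tumors farthest from the median of the first gene of a pair, the number of pairs past the threshold for rho went from 2 to 0 in primaries and from 1 to 0 in transplants, which also leaves fewer samples. Without TMM factors the levels in the libraries of line 402230 labelled primary tumor and cell line were 28.7 and 140.1 CPM for Ahr, 73.2 and 137.6 CPM for Arnt, and 134.8 and 90.3 CPM for Tiparp. Depth limits Cyp1a1 most, with 3 or fewer counts in 36 of 48 tumors.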

Other observations

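Cyp1a2, the liver form of the Cyp1a enzymes, was at 0 counts in the library labelled as the primary tumor of line 402230 and at 79 counts, 1.71 CPM, in the library labelled cell line, above all 48 tumors, whose highest was 1.29 CPM. In that library the hepatocyte genes Alb and Apoa1 had 16853 and 3840 counts, against 12 and 6 in the library labelled primary tumor. Replicate 3 of the transplants given 20 Gy and anti-PD-1 held 53 counts of Cyp1a2 and the highest hepatocyte sum of the tumors, 438.5 CPM. Kynu, an enzyme of kynurenine breakdown, was at 0 counts in the library labelled primary tumor and at 69 counts in the library labelled cell line, and Slc7a5 stood at 163.7 and 50.1 CPM in these libraries.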
